A study of Mus musculus with 10 samples.

Results

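Adipocyte genes were followed through colon tissue of mice on a normal and on a pro-inflammatory diet. The set is a list of 10 genes known from fat cells (Pparg, Fabp4, Adipoq, Plin1, Plin4, Cidec, Cfd, Retn, Lep and Cyp2e1), taken by symbol from the deposited table of 18398 genes, and all 10 were in it. The study sequenced RNA of colon from wild-type (WT) mice: 5 samples are labelled Normal diet and 5 Pro-inflammatory diet. By its title the study is about colitis and the gut microbiota, and its one comparison is that of the diets. No allele, transgene or further agent is given for either group. Strain, age and sex are not stated. Separate mice are not stated, nor is induction of colitis in any of them, so the p-values measure only the spread between samples, part of which may be technical. Libraries are named by diet and the number in their title.

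Adipocytes store triglyceride in a single large lipid droplet and secrete adipokines. PPARγ, the nuclear receptor encoded by Pparg, is the master regulator of adipocyte differentiation and binds DNA as a heterodimer with RXR. In the colon it is also abundant in the epithelium, where differentiated surface colonocytes express it, while Adipoq and Plin1 are close to exclusive to adipocytes. The mesentery that carries the vessels of the colon is rich in white fat, so a piece of colon wall can come with a variable amount of it.

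Colon identity was checked first. The 14 epithelial marker genes, all of them tested, summed to 7146 to 9825 FPKM (sequenced fragments divided by gene length and library total) in every library, and the 5 pancreas genes to 0.952 FPKM at most. Each library held 15652783 to 18341956 reads on genes. Pro-inflammatory diet libraries 2 and 5 stood apart: Hoxb13, a homeobox gene of the distal colon, was at 0.417 and 20.9 FPKM there and at 211 to 341 FPKM in the other 8. Pro-inflammatory diet libraries 1 and 3 held liver transcripts, with Alb (albumin) at 97.3 and 100.4 FPKM against 0.166 to 8.45 elsewhere. Normal diet library 4 held skeletal muscle and stratified skin transcripts, at list sums of 533 and 359 FPKM against at most 22.5 and 3.31 elsewhere. These libraries are named beside each result they touch, and the part of their tissue make-up in it was not tested except where a value without them is given.

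Pparg has a start upstream, used in many cell types, and an internal start whose transcript is best known from adipocytes. A gene-level FPKM value adds up both and cannot tell them apart. RefSeq windows of 300 bases (250 before and 50 after a start, GRCm38.p6) were found for 9 of the 10 genes, 12 windows in all. Fabp4 had no entry. The windows of the upstream and internal Pparg starts are shown because this gene is the one in which epithelium and fat meet, and those of Plin1 and Adipoq because these genes stand for fat below. Each is written 5′ to 3′ on the strand of the gene, and capitals mark matches on either strand to AGGTCA, the nuclear receptor half-site, or to TTGCNNAA, a pattern of the C/EBP family of adipocyte regulators.
Pparg, upstream start, chr6:115360894-115361193, plus strand: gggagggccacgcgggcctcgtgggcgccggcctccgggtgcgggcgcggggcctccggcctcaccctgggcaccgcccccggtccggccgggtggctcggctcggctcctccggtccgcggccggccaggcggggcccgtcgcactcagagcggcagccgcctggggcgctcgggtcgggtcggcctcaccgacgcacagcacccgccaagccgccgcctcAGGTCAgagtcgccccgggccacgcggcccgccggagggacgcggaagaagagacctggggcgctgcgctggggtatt
Pparg, internal start, chr6:115421816-115422115, plus strand: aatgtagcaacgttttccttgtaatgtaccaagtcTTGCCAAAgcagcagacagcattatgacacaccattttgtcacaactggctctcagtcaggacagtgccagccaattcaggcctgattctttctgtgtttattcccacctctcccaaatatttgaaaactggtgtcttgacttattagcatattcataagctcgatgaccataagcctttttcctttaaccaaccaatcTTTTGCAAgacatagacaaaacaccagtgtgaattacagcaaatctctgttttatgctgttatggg
Plin1, chr7:79732727-79733026, minus strand: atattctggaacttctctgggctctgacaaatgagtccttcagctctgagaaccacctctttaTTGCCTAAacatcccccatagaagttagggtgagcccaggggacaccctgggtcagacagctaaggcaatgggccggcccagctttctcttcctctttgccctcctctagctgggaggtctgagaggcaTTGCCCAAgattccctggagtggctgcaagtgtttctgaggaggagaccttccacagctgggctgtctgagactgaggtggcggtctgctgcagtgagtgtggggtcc
Adipoq, chr16:23146286-23146585, plus strand: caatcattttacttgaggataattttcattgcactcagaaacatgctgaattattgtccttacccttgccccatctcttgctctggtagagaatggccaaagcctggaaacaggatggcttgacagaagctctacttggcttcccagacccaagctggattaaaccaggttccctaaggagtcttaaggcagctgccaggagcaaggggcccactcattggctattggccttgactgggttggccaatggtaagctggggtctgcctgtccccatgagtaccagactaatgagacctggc

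AGGTCA occurred in 2 of the 12 windows, both upstream starts of Pparg, at 28 and 9 bases before the start, and in 16.3% of all 32851 windows of the RefSeq table. TTGCNNAA occurred in 4 windows, those of the internal Pparg start, Plin1, Lep and 1 start of Cidec, and in 10.8% of all windows. The internal Pparg window held 2 such matches, beginning 215 and 16 bases before the start, and the Plin1 window 2, at 187 and 58 bases before it. No window of these genes held both patterns, and the Adipoq window held neither. A match describes the letters only, and a window without one leaves the factor's binding unmeasured.

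Over both diets, normal diet library 5 and pro-inflammatory diet libraries 3 and 4 were the 3 lowest in Adipoq. Adipoq, Plin1, Cidec, Retn and Lep were at 0.838 FPKM or less in them, and Cfd was at 0.180, 4.25 and 1.44 FPKM, below its 8.58 FPKM or more in the other 7. In the same 3 libraries Pparg was at 10.5 to 13.8 FPKM, Fabp4 at 24.3 to 31.5 FPKM and Plin4 at 1.77 to 2.94 FPKM. None of the 9 tested genes passed the adjusted threshold between the diets.

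Adipoq encodes adiponectin, the most abundant adipokine, and lies on chromosome 16 (23146536 to 23158028, plus strand, GRCm38). It was at 6.12, 1.50, 1.95, 5.11 and 0 FPKM in normal diet libraries 1 to 5, and at 11.1, 20.5, 0.574, 0.490 and 9.85 FPKM in pro-inflammatory diet libraries 1 to 5. These values came from 124, 29, 43, 111 and 0 reads, and from 242, 442, 13, 10 and 193 reads. Pro-inflammatory diet libraries 1, 2 and 5 were above every normal diet library, and libraries 3 and 4 below all of them but the one at 0, so the groups overlapped at both ends. A count of 0 in normal diet library 5 allows a level of up to 0.135 FPKM (3 reads), counting error only. Normal diet libraries averaged 2.94 ± 2.57 FPKM and pro-inflammatory diet libraries 8.50 ± 8.36 FPKM (SD, n = 5 in each group). On the log2(FPKM + 1) scale the difference was 0.87 (SE 0.83, 95% interval -0.98 to 2.72, limma with Benjamini-Hochberg adjustment, adjusted p = 0.577). Single libraries moved it: the difference was 0.40 without pro-inflammatory diet library 2, 0.46 without normal diet library 5 and 1.36 without pro-inflammatory diet library 4, and voom on the whole reads gave 1.70 (SE 1.68). Within the tissue, fewer fat cells and less Adipoq RNA per fat cell cannot be told apart in any value given here.

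**Figure D1:**
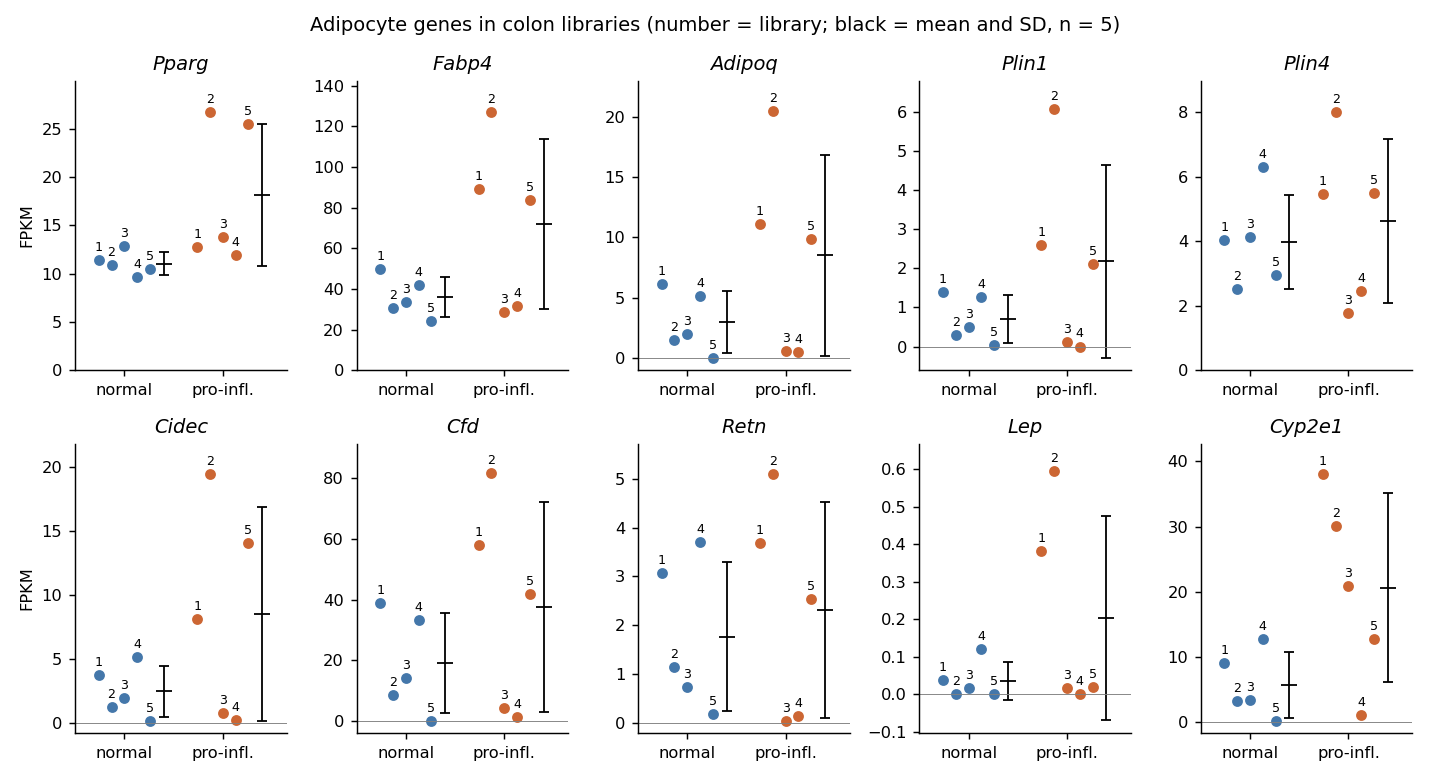
FPKM of each of the 10 genes (vertical axes from 0 or just below, one panel per gene) in normal diet (blue) and pro-inflammatory diet (orange) libraries; numbers name the library and black bars give the mean and SD of 5. Pparg shows 2 libraries, pro-inflammatory diet 2 and 5, above the other 8, while Adipoq, Plin1, Cidec, Cfd and Retn spread in both diets, with normal diet 5 and pro-inflammatory diet 3 and 4 lowest.

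Plin1 encodes perilipin 1, the protein that coats the adipocyte droplet and gates lipolysis (chromosome 7, 79720218 to 79732903, minus strand). Its levels were 1.40, 0.300, 0.496, 1.27 and 0.0289 FPKM on the normal diet and 2.59, 6.05, 0.114, 0 and 2.10 FPKM on the pro-inflammatory diet. Library for library this was the pattern of Adipoq, and the 2 lowest libraries of Plin1 (0 and 1 read) were among the 3 lowest of Adipoq. Across the 10 libraries the log2 levels of Plin1 and Adipoq gave Pearson r = 0.975 and Spearman rho = 0.988 (two-sided permutation p = 1e-05, the smallest that 100000 permutations give, and 2e-05; adjusted over 6 relations 3e-05 and 0.00012). Without the 2 libraries farthest from the median of Adipoq, pro-inflammatory diet 2 and normal diet 5, r was 0.996 over 8. The FPKM of Plin1 was 0.198 to 0.295 of that of Adipoq in each of the 8 libraries with reads for both. The diet difference of Plin1 was 0.60 (SE 0.52, limma adjusted p = 0.539), and 0.22 to 0.92 as single libraries were left out, lowest without pro-inflammatory diet library 2 and highest without library 4.

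Cidec, whose product fuses droplets into the single large one of white adipocytes (chromosome 6, 113424634 to 113435760, minus strand), was at 3.77, 1.27, 2.01, 5.17 and 0.221 FPKM on the normal diet. On the pro-inflammatory diet it was at 8.13, 19.5, 0.838, 0.275 and 14.1 FPKM. Again pro-inflammatory diet libraries 1, 2 and 5 were the 3 highest of the 10. The diet difference was 0.95 (SE 0.80, limma adjusted p = 0.53), and 0.50 without pro-inflammatory diet library 2 and 1.50 without library 4. Of the 12344 other tested genes, Cidec was the most like Adipoq by Pearson r of log2 levels over the 10 libraries (0.977), followed by Plin1 (0.975), Cfd (0.962), Fabp4 (0.955) and Lpl (0.954), the lipoprotein lipase that releases fatty acids for uptake. Lpl is no member of the list; it ran from 2.51 FPKM in normal diet library 5 to 17.9 FPKM in pro-inflammatory diet library 2. Retn had rank 6 and Plin4 rank 12, while Cyp2e1 had rank 92 and Pparg rank 991 (r = 0.618). The order of likeness is a description, since these genes share the 10 libraries.

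Cfd encodes adipsin, the serine protease factor D of the alternative complement pathway, secreted by adipocytes (chromosome 10, 79890853 to 79892655, plus strand). It was the widest-ranging member with reads in every library: 38.8, 8.58, 14.1, 33.5 and 0.180 FPKM on the normal diet and 58.1, 81.7, 4.25, 1.44 and 42.0 FPKM on the pro-inflammatory diet, a 454-fold span. The lowest of these values rests on 3 reads. Retn encodes resistin, an adipokine of white fat in mice (chromosome 8, 3655770 to 3660110, plus strand). Its levels were 3.07, 1.14, 0.738, 3.70 and 0.172 FPKM against 3.68, 5.10, 0.0423, 0.141 and 2.54 FPKM, from 1 to 115 reads. Normal diet library 4, with skin and muscle transcripts, held the second highest Retn. The diet differences were 0.70 for Cfd (SE 1.20, limma adjusted p = 0.767) and 0.11 for Retn (SE 0.57, adjusted p = 0.934).

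Lep encodes leptin, the satiety hormone secreted in proportion to fat mass (chromosome 6, 29060220 to 29073877, plus strand). Its mean was under the minimum of 1 FPKM, so it was not among the tested genes. It had 2, 0, 1, 7 and 0 reads in the normal diet libraries and 22, 34, 1, 0 and 1 reads in the pro-inflammatory diet libraries. The levels reached 0.381 and 0.596 FPKM in pro-inflammatory diet libraries 1 and 2, the highest of the 10. The 3 libraries without a read allow up to 0.0509 to 0.0588 FPKM each. Fitted without the filter on low values, its diet difference was 0.19 (SE 0.13, limma adjusted p = 0.527).

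Fabp4, the fatty acid binding protein of adipocytes, is also made by capillary endothelium and macrophages (chromosome 3, 10204088 to 10208576, minus strand). It was the most abundant of the 10 genes, at 49.9, 30.7, 33.4, 42.0 and 24.3 FPKM on the normal and 89.4, 127, 28.8, 31.5 and 83.7 FPKM on the pro-inflammatory diet. Where Adipoq was at 0, 0.574 and 0.490 FPKM (normal diet library 5 and pro-inflammatory diet libraries 3 and 4), Fabp4 still stood at 24.3, 28.8 and 31.5 FPKM, about the level of the lowest other libraries. Above that floor it climbed with Adipoq (r = 0.955, rho = 0.964, permutation p = 1e-05, the smallest possible, and 8e-05; adjusted 3e-05 and 0.00024; r = 0.929 without pro-inflammatory diet 2 and normal diet 5). With the mean log2 level of the endothelial list it gave r = -0.07 and rho = -0.20 (permutation p = 0.856 and 0.583, adjusted 0.934 and 0.699). The 12 endothelial genes were all tested, and their sums of 111 to 141 FPKM on the normal and 97.5 to 138 on the pro-inflammatory diet overlapped. The 10 macrophage genes summed to 245 to 354 and 238 to 431 FPKM, highest in pro-inflammatory diet libraries 2 and 1, as Fabp4 was. Next came normal diet library 5 at 354 FPKM, the lowest library in Fabp4. Pro-inflammatory diet library 5, at rank 3 in Fabp4, was at 307 FPKM. All 10 macrophage genes had a higher mean on the pro-inflammatory diet, with a median of 0.15 and 0 passing in limma after adjustment. At an unadjusted p under 0.05, 1 of them was higher, against 8.16% of all tested genes. The diet difference of Fabp4 was 0.80 (SE 0.40, 95% interval -0.10 to 1.69, limma adjusted p = 0.327), and 0.30 without pro-inflammatory diet libraries 2 and 5.

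Plin4, a perilipin of small and nascent droplets that muscle also expresses (chromosome 17, 56100591 to 56109803, minus strand), varied less. Normal diet libraries held 4.03, 2.51, 4.12, 6.30 and 2.94 FPKM and pro-inflammatory diet libraries 5.47, 8.01, 1.77, 2.45 and 5.50 FPKM. The second highest was normal diet library 4, where skeletal muscle transcripts were highest. Plin4 differed by 0.10 between the diets (SE 0.32, limma adjusted p = 0.889), with a 95% interval from -0.62 to 0.81. In the GENCODE M21 models 17 of its 5777 exonic bases lay over exons of Hdgfl2 on the opposite strand. None of the other 9 genes shared an exonic base with another gene.

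**Figure D2:**
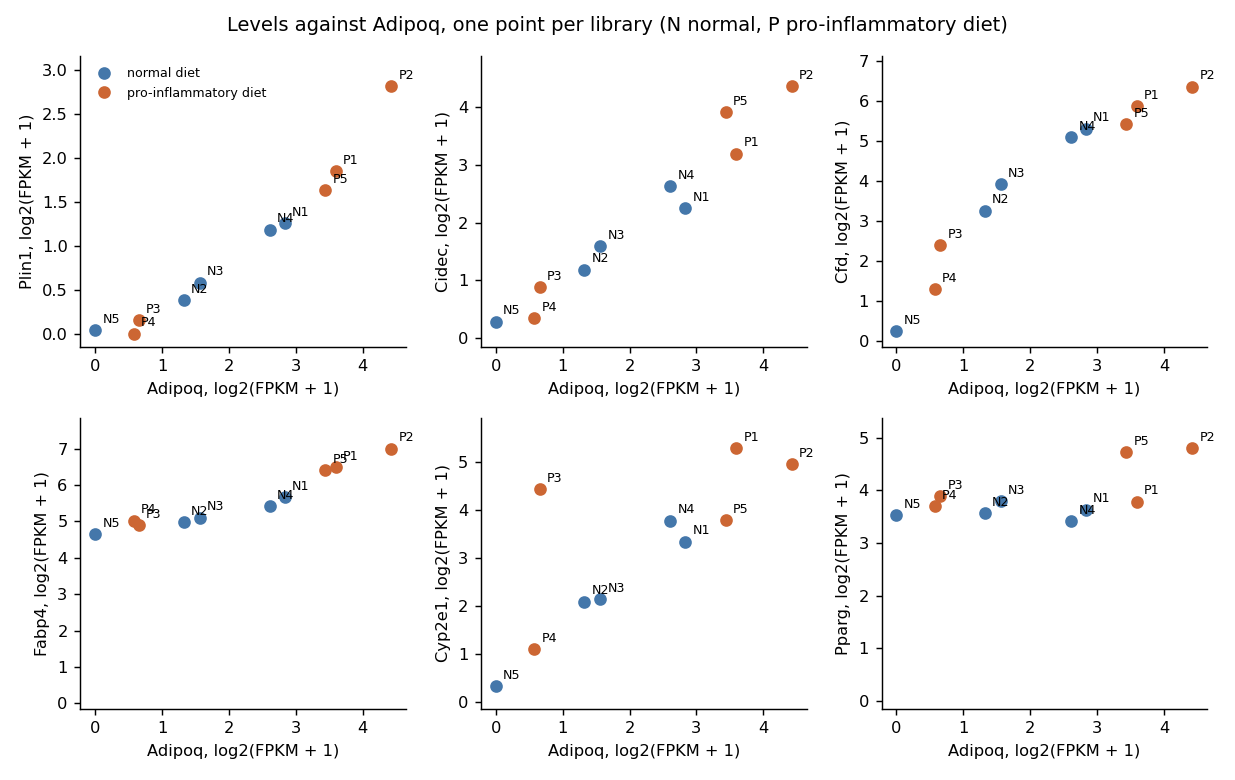
Log2(FPKM + 1) of Plin1, Cidec, Cfd, Fabp4, Cyp2e1 and Pparg (vertical axes) against Adipoq (horizontal axis), one point per library, blue for normal (N) and orange for pro-inflammatory diet (P). Plin1, Cidec and Cfd rise from near 0 with Adipoq, and Fabp4 rises from a floor of 24.3 FPKM. Cyp2e1 is higher in P3 than in P4, which is close to it in Adipoq, and Pparg lies flat except P2 and P5.

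Pparg (chromosome 6, 115360951 to 115490399, plus strand) was the least like Adipoq of the tested members over the 10 libraries. It was at 11.4, 10.9, 12.8, 9.68 and 10.5 FPKM on the normal diet and at 12.8, 26.7, 13.8, 11.9 and 25.5 FPKM on the pro-inflammatory diet. A narrow band from 9.68 to 13.8 FPKM held 8 libraries, and pro-inflammatory diet libraries 2 and 5 stood alone above it. These 2 libraries were also at ranks 1 and 3 of 10 in Adipoq and 1 and 2 in Cidec. Normal diet library 5, with no Adipoq read, had 640 Pparg reads, and normal diet library 1, with 6.12 FPKM of Adipoq, had 634. Pro-inflammatory diet library 1 held rank 2 of 10 in Adipoq, Plin1, Cfd and Fabp4 and rank 5 in Pparg. Pparg was 1.15 to 24.4 times Adipoq in FPKM over the 9 libraries with Adipoq reads.

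Because Pparg fell into 2 clusters, no relation was tested over all 10 libraries, and it was computed within the 8 libraries of the band. These were picked by their Pparg values and leave out 2 libraries high in both genes, so an r near 0 within so narrow a range does not show that Pparg and the fat genes are unrelated. There Pparg with Adipoq gave r = -0.03 and rho = 0.07 (exact permutation p = 0.934 and 0.882, adjusted 0.934 and 0.882), and r = -0.65 over 6 (exact permutation p = 0.16) without pro-inflammatory diet 1 and normal diet 5, the farthest in Adipoq. Its r with the other 8 tested members lay between -0.38 (Plin4) and 0.37 (Cyp2e1). In the same 8 libraries the r values among Adipoq, Plin1, Cidec, Cfd and Retn ran from 0.910 to 0.983. Fabp4 gave 0.816 to 0.943 with these 5 genes and 0.149 with Pparg.

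**Figure D3:**
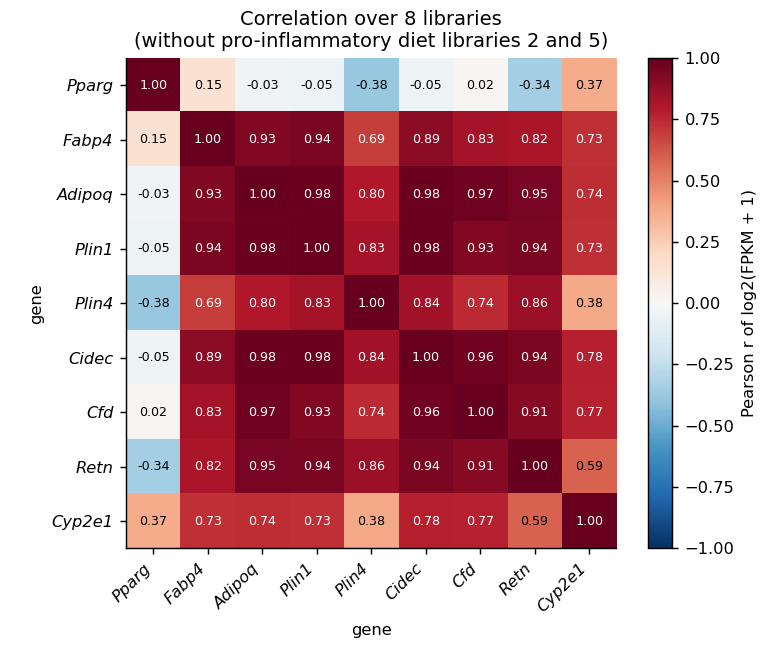
Pearson r of log2(FPKM + 1) between the 9 tested adipocyte genes over the 8 libraries other than pro-inflammatory diet 2 and 5 (colour scale from -1 to 1, value in each cell). The 8 libraries were those in the narrow band of Pparg. The block of Adipoq, Plin1, Cidec, Cfd and Retn holds r of 0.910 to 0.983, and the row of Pparg holds -0.38 to 0.37.

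Pparg was set beside the epithelium. Within the 8 libraries its r with the epithelial score, the mean log2 level of the 14 epithelial genes, was 0.354 (rho = 0.381, exact permutation p = 0.38 and 0.36, adjusted 0.57 and 0.54), and 0.198 without the 2 libraries farthest in that score. Pparg minus this score was -4.58 to -5.05 in the 8 libraries and -4.00 and -4.08 in pro-inflammatory diet libraries 2 and 5, on the log2 scale. Of the 14 epithelial genes 10 had a higher and 4 a lower mean on the pro-inflammatory diet, with a median of 0.14 and 0 passing in limma. At an unadjusted p under 0.05, 2 were higher, against 8.16% of all tested genes. Pro-inflammatory diet libraries 2 and 5 also had the highest epithelial scores, 8.79 and 8.81 against 8.34 to 8.63, and the lowest Hoxb13. The summed FPKM of the same 14 genes gave another order. It was 9086 and 9506 FPKM in these libraries, against 9825, 9387 and 9256 FPKM in pro-inflammatory diet libraries 3 and 4 and normal diet library 2. The list includes Phgr1, itself at rank 6 in likeness to Pparg over all 10 libraries (r = 0.976). The 5 genes most like Pparg over all 10 libraries were Ugt2b5, Atp6v0a2, Ugt1a6a, Mettl7b and Arel1 (r = 0.977 to 0.982), an order that both high libraries set. Ugt2b5, a glucuronosyltransferase of lipid and drug clearance, was at 26.4 and 16.5 FPKM there and at 0.0292 to 2.21 FPKM elsewhere. Ugt1a6a of the same enzyme superfamily was at 16.7 and 12.8 FPKM against 0.876 to 1.91 FPKM. Over the 8 libraries of the band the nearest were, in order, Acadvl, Mfap1a, Stk16, Hadha and the complex I gene Ndufb5 (r = 0.922 to 0.955). Acadvl and Hadha act in mitochondrial fatty acid β-oxidation. This order is a description only, since it takes the top of 12344 genes over 8 libraries in a narrow range of Pparg. Acadvl ran there from 69.2 FPKM in normal diet library 4, the lowest in Pparg, to 87.1 FPKM in pro-inflammatory diet library 3, the highest in Pparg of the 8.

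**Figure D4:**
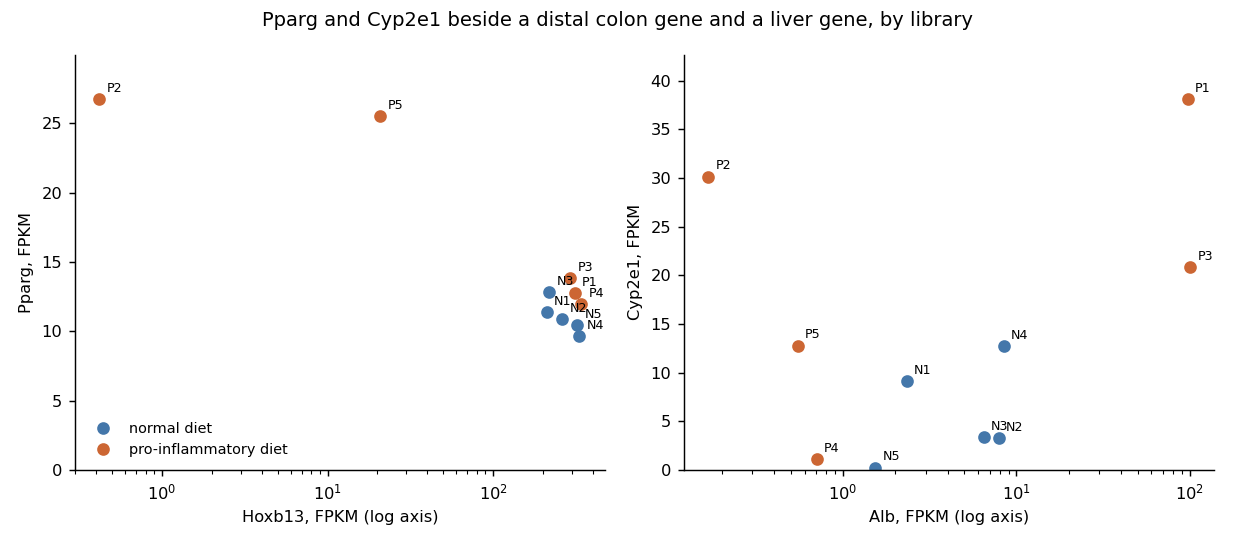
Pparg FPKM against Hoxb13 FPKM (left) and Cyp2e1 FPKM against Alb FPKM (right), horizontal axes logarithmic, one point per library, blue for normal (N) and orange for pro-inflammatory diet (P). P2 and P5, at 0.417 and 20.9 FPKM of Hoxb13, hold the 2 highest Pparg values; P1 and P3, near 100.4 FPKM of Alb, hold ranks 1 and 3 of 10 in Cyp2e1.

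Between the diets, Pparg had means of 11.1 ± 1.18 and 18.2 ± 7.32 FPKM (SD, n = 5 each) and a log2 difference of 0.59 (SE 0.22, 95% interval 0.10 to 1.08). Its limma p was 0.0223 unadjusted and 0.221 after Benjamini-Hochberg adjustment over the 12345 tested genes. Without pro-inflammatory diet libraries 2 and 5 the difference was 0.20 (SE 0.09), with 11.9 to 13.8 FPKM in the remaining 3 against 9.68 to 12.8 FPKM on the normal diet. With the distal colon score (mean log2 level of 4 posterior homeobox genes) as a covariate it was 0.23 (SE 0.08, limma unadjusted p = 0.0134, adjusted p = 0.192). That score mainly sets the same 2 libraries apart, so this fit is no separate check. With the epithelial score the diet difference was 0.31 (SE 0.15, unadjusted p = 0.0661, limma adjusted p = 0.399). With Adipoq it was 0.46 (SE 0.20, limma unadjusted p = 0.0444, adjusted p = 0.311). Pparg minus Adipoq, the difference of their log2(FPKM + 1) levels in each library, differed by -0.28 between the diets (SE 0.83, exact permutation p = 0.754, adjusted 0.984). Pparg minus Plin1 differed by -0.01 (SE 0.47, exact permutation p = 0.984). The added 1 makes these values smaller than log2 ratios in libraries low in Adipoq or Plin1. The smallest p this design allows is 0.00794.

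Cyp2e1, an ethanol- and fatty acid-oxidising cytochrome P450 of hepatocytes and adipocytes (chromosome 7, 140763739 to 140774987, plus strand), followed Adipoq in most libraries. It was at 9.14, 3.26, 3.43, 12.7 and 0.251 FPKM on the normal diet and at 38.1, 30.2, 20.8, 1.13 and 12.8 FPKM on the pro-inflammatory diet. Cyp2e1 was 1.30 to 3.44 times Adipoq in 8 libraries and 36.3 times in pro-inflammatory diet library 3. That library and pro-inflammatory diet library 1 held the hepatocyte list at 325 and 334 FPKM (16 genes, 15 tested), against at most 26.6 FPKM elsewhere; of its defining genes, Apoa2 was at 30.0 and 33.0 FPKM there and at 0.244 to 2.79 FPKM in the other 8. The correlation with Adipoq was r = 0.778 and rho = 0.794 (permutation p = 0.0101 and 0.00902, adjusted 0.0203 and 0.018), but r = 0.615 (exact permutation p = 0.107) without pro-inflammatory diet 2 and normal diet 5, on which it rests. It was 0.969 without pro-inflammatory diet library 3. The diet difference of Cyp2e1 was the widest of the set, 1.58 (SE 0.84, 95% interval -0.29 to 3.45, limma adjusted p = 0.346), and 0.94 without pro-inflammatory diet libraries 1 and 3.

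Counted together, 9 of 9 tested members had a higher mean log2 level on the pro-inflammatory diet, where 47.1% of the 12345 tested genes did. The median difference of the 9 was 0.70 against -0.01 over all tested genes. The 9 are not separate observations: Adipoq, Plin1, Cidec, Cfd and Retn gave r of 0.910 to 0.983 with each other over 8 libraries. The members were also chosen with earlier results of these data known. The median was 0.40 without pro-inflammatory diet library 2 and 0.46 without normal diet library 5, each with 7 members higher and 2 lower, and 1.06 without pro-inflammatory diet library 3. With Adipoq as a covariate it was 0.11, with 5 of the other members higher and 3 lower. By limma with Benjamini-Hochberg adjustment 0 of the 9 passed in either direction, as did 0 genes (0% higher, 0% lower) of the whole table. At an unadjusted p under 0.05, 1 member was higher (Pparg) and 0 lower, against 8.16% of all tested genes higher and 9.25% lower, and voom on the whole reads called 0 genes after adjustment. The values of the diets overlapped in all 9, where 1.77% of tested genes lay entirely higher on the pro-inflammatory diet. Without pro-inflammatory diet libraries 2 and 5, 3 members (Pparg, Fabp4 and Cyp2e1) kept a positive difference, 6 had a negative one and the median was -0.06. Adipoq was then at -0.06, Plin1 at -0.02, Cidec at -0.12, Plin4 at -0.28, Cfd at -0.38 and Retn at -0.45. With the distal colon score as a covariate the counts were likewise 3 and 6, with a median of -0.06.

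**Figure D5:**
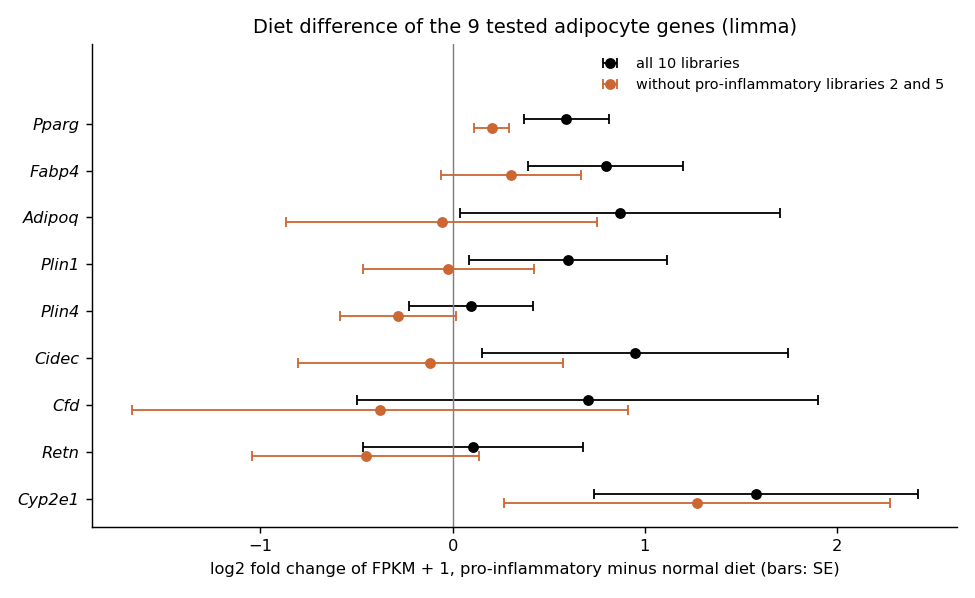
Log2 fold change of FPKM + 1, pro-inflammatory minus normal diet, for the 9 tested adipocyte genes (bars are SE), over all 10 libraries (black) and without pro-inflammatory diet libraries 2 and 5 (orange). All 9 lie above 0 in black, and in orange Pparg, Fabp4 and Cyp2e1 lie above 0 and the other 6 below.

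Other adipocyte genes gave a mixed picture. The deposited values hold 19 of them, of which 14 were tested, 10 with a higher and 4 with a lower mean on the pro-inflammatory diet. After adjustment 0 passed by limma and 0 by voom. At an unadjusted limma p under 0.05, 1 was higher, against 8.16% of all tested genes. The median difference of the 14 was 0.29. Cd36, a fatty acid transporter that epithelium, endothelium and macrophages also use, was at 8.64, 5.96, 6.63, 10.1 and 8.17 FPKM against 12.4, 15.2, 7.09, 9.43 and 12.0 FPKM (0.44, SE 0.19, adjusted p = 0.267). Dgat2, which makes the last step of triglyceride synthesis, was at 28.1 and 29.0 FPKM in pro-inflammatory diet libraries 2 and 5 and at 9.83 to 18.5 FPKM in the other 8, the grouping of Pparg and not of Adipoq. Adig, an adipocyte regulator, ranged from 0 FPKM in pro-inflammatory diet library 4 to 2.08 FPKM in library 2. Car3, carbonic anhydrase of fat and skeletal muscle, was highest in normal diet library 4 at 125 FPKM, and lowest in normal diet library 5 at 0.504 FPKM.

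The 14 lipid droplet genes outside the member list summed to 237 to 258 FPKM in the 5 libraries highest in Adipoq (normal diet 1 and 4, pro-inflammatory diet 1, 2 and 5) and to 224 to 236 FPKM in the other 5. Single genes differed from this. Plin2, the perilipin found in most cells, was lowest in pro-inflammatory diet libraries 2 and 5, at 30.0 and 37.9 FPKM against 49.2 to 60.2 FPKM in the other 8. Plin3 stayed between 30.5 and 35.7 FPKM in all 10 libraries, and its diet difference was -0.10 (SE 0.05, limma adjusted p = 0.333). Cideb, the family member of liver and intestine that loads lipid onto lipoproteins, was at 39.6 to 52.0 FPKM on the normal and 47.3 to 58.0 FPKM on the pro-inflammatory diet (0.26, SE 0.08, adjusted p = 0.185). Of the 14 droplet genes 11 were tested, 6 higher and 5 lower, with a median of 0.03 and 0 passing after adjustment. At an unadjusted p under 0.05, 1 was higher, against 8.16% of all tested genes.

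Partners and targets of PPARγ were read beside Pparg. Rxra, its heterodimer partner, was highest in pro-inflammatory diet libraries 2 and 5 (30.0 and 30.9 FPKM) and at 17.4 to 22.3 FPKM in the other 8 (0.35, SE 0.12, limma adjusted p = 0.197). Of the 14 partner genes, all tested, 4 were higher and 10 lower with a median of -0.12, and 0 passed. At an unadjusted p under 0.05, 1 was higher and 2 lower, against 8.16% and 9.25% of all tested genes. The mediator subunit Med1 was at -0.17 (SE 0.06, limma adjusted p = 0.228). Among 12 PPAR target genes of epithelium, 11 tested, 8 were higher and 3 lower with a median of 0.39, and 0 passed. Of the targets, 2 were higher at an unadjusted p under 0.05, against 8.16% of all tested genes. Angptl4, an inhibitor of lipoprotein lipase that adipocytes also make, was at 4.35 and 5.12 FPKM in pro-inflammatory diet libraries 2 and 5 and at 3.82 FPKM in library 1 of that diet, against at most 2.41 FPKM in the rest. Acaa1b, a peroxisomal thiolase abundant in liver and fat, was at 3.37, 9.33, 2.31, 0.108 and 4.26 FPKM on the pro-inflammatory diet and at most 0.405 FPKM on the normal diet (1.73, SE 0.47, adjusted p = 0.173). Ehhadh, a peroxisomal β-oxidation enzyme, lay at 11.6 to 15.6 FPKM on the normal and 15.7 to 23.1 FPKM on the pro-inflammatory diet without overlap (0.39, SE 0.12, adjusted p = 0.18). Of all tested genes, 1.77% lay entirely higher on that diet, and Ehhadh was named for having 1 of the 2 smallest p of its list.

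Relatives of Fabp4 and Retn differed from each other in which libraries were high. Fabp2, the fatty acid binding protein of enterocytes, was at 395 and 479 FPKM in pro-inflammatory diet libraries 2 and 5 and at 33.0 to 145 FPKM in the other 8. Retnlb, the resistin relative that goblet cells secrete, was at 389 and 693 FPKM in these libraries and at 3.10 to 76.1 FPKM elsewhere. Fabp1, of liver and proximal gut, was at 39.3 and 37.2 FPKM in pro-inflammatory diet libraries 1 and 3, those with albumin, and at 7.53 FPKM at most in the others. Retnla, the resistin relative of macrophages and fat, ran from 3.52 to 17.1 FPKM with no such split. Of 5 tested fatty acid binding relatives 4 were higher and 1 lower, of 2 resistin relatives 1 each, and 0 passed in limma with or without adjustment.

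Of the receptors for adipokines, the adiponectin receptor Adipor1 was steady at 51.7 to 65.1 FPKM over the 10 libraries (-0.13, SE 0.07, limma adjusted p = 0.342). The leptin receptor Lepr was at 2.97 to 4.25 FPKM on the normal and 3.58 to 5.09 FPKM on the pro-inflammatory diet. Of 5 receptor genes 2 were higher and 3 lower with a median of -0.06, and 0 passed with or without adjustment.

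Markers of the cells that could come with fat were counted. Of 7 mesothelial genes, which cover the serosa, 0 reached the test, and their sums were 1.28 to 6.20 FPKM. Of 7 genes of adventitial fat precursors 5 were tested, 1 higher (Ly6a) and 4 lower, with a median of -0.08 and 0 passing after adjustment. Ly6a was higher at an unadjusted p under 0.05, where 8.16% of all tested genes were. The sums of the 7 were highest in pro-inflammatory diet libraries 5 and 2 (582 and 388 FPKM, against 206 to 357 elsewhere). Such a sum does not show whether most of the 7 genes were high there. The 6 lymph node genes summed to 85.3 to 130 and 77.1 to 141 FPKM. The 8 smooth muscle genes all had a lower mean on the pro-inflammatory diet, with a median of -0.33 and the lowest sum in pro-inflammatory diet library 2. After adjustment 0 of them passed. At an unadjusted p under 0.05, 5 were lower, against 9.25% of all tested genes. Of 6 brown fat genes listed, 2 were tested, Cpt1b and Cox8b. The sum of all 6 was 22.1 FPKM in normal diet library 4, the library with skeletal muscle transcripts, and 3.49 to 5.28 FPKM elsewhere. The part of muscle in this sum was not tested, and Ucp1, the defining gene of brown fat, was not analysed here. The part of these cell types in the values of the adipocyte genes was not tested.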

How the data were processed

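Colon RNA of 10 samples was sequenced from a stranded mRNA library, per the labels' protocols. The authors deposited 1 FPKM value per gene symbol and sample. Tools listed in the submitters' processing notes, with no role for each, are Bowtie2, Cufflinks, DESeq, HISAT2, HTSeq, StringTie and Trimmomatic, and the build is mm10. No source states whether strand was used in counting.

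Values of 18398 of 18398 genes were whole multiples of 1 read within 0.02 read, which gave the reads per library. Samples were grouped by the treatment label. Genes averaging 1 FPKM or more over the 10 libraries (12345) entered limma 3.58.1 (R 4.3.3) as log2(FPKM + 1) values (eBayes with trend, Benjamini-Hochberg adjustment, threshold 0.05). Fold changes on this scale understate those of low genes. Correlations used 100000 permutations (10 libraries) or all orders (8). The 2 most alike libraries gave a chi-square of 12.8 per gene on their reads, so none was counted as a copy. The limma step and the read recovery were tested on simulated data. A level allowed by 0 reads is that of 3 reads, counting error only.

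The members and lists were chosen with earlier results of these data known, and the hepatocyte, skeletal muscle and sebaceous lists after the values were seen. Text was given to all 10 members, the 5 genes most like Adipoq and Pparg, and genes of the lists with the 2 smallest p; Hoxb13, Alb, Apoa2, Angptl4, Fabp1, Fabp2, Retnla, Retnlb, Plin2, Adig, Car3 and Lepr were named after their values were seen. Alternatives changed the pseudocount (0.1, 0.5), filter, scaling, test (voom on whole reads), covariates and libraries. Gene positions are GENCODE M21 (GRCm38, the assembly of mm10), 1-based, and promoters RefSeq GRCm38.p6. Figures were drawn with matplotlib 3.10.9 in Python 3.11.15.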

Additional observations from a re-analysis of the deposited data

Results flagged for a closer look

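In groups of 5 libraries, list sums were checked for a library far from the others of its diet, by the gap to its nearest neighbour over the range of the group. Of 68 groups 7 were flagged. Chance flags about 1 in 20 groups, but 2 of the flags, for skeletal muscle and sebaceous genes, are in lists chosen after the values were seen, so the count cannot be read against chance. Of the 7, 5 concerned normal diet library 4. Its brown fat genes summed to 22.1 FPKM against 3.99 to 4.47 in the other normal diet libraries, its mesothelial genes to 6.20 against 2.53 to 2.98, and its stratified skin genes to 359.4 against 1.82 to 2.71. Its skeletal muscle genes summed to 533.4 FPKM against 10.3 to 14.8 and its sebaceous gland genes to 79.2 FPKM against 0.216 to 0.715. The part of muscle in its brown fat sum was not tested. Macrophage genes summed to 354.1 FPKM in normal diet library 5, the library without an Adipoq read, against 245 to 263 in the others. Brown fat genes were low in pro-inflammatory diet library 5, at 3.49 FPKM against 4.77 to 5.28. No value of the 10 adipocyte genes was flagged. The rule cannot flag 2 high libraries close to each other, as pro-inflammatory diet libraries 2 and 5 were in Pparg.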

How the results depend on the processing

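In limma, 0 genes passed in each of the 23 settings, with 502 to 2734 genes at an unadjusted p under 0.05 (2149 as reported), and the lowest adjusted p of a member was 0.159. Of 206 alternative differences of members, 178 kept their direction and 28 turned; the cause was not tested. With the distal colon covariate Adipoq was at -0.063, Plin1 -0.042, Plin4 -0.263, Cidec -0.062, Cfd -0.46 and Retn -0.443. Without pro-inflammatory diet libraries 2 and 5 they were at -0.057, -0.0225, -0.285, -0.115, -0.38 and -0.451, Pparg minus Adipoq at 0.261 and Pparg minus Plin1 at 0.227. With Adipoq as covariate Plin4 was at -0.207, Cfd -0.515 and Retn -0.478, with the epithelium covariate Plin4 at -0.0333 and Retn -0.0827, and without normal diet libraries 1, 2 and 3 Plin4 at -0.0586. Retn was at -0.187 with a pseudocount of 0.1 and -0.394 by voom, and Pparg with Adipoq then gave r = 0.0581 at that pseudocount. Leaving out each library in turn gave -0.106 to 0.321 for Plin4, -0.128 to 1.45 for Cfd, -0.201 to 0.436 for Retn, -0.679 to 0.12 for Pparg minus Adipoq and -0.22 to 0.229 for Pparg minus Plin1. It gave r of -0.306 to 0.218 for Pparg with Adipoq, 0.692 to 0.969 for Cyp2e1 with Adipoq (no longer past the threshold without normal diet library 5, pro-inflammatory diet library 1 or 2) and -0.552 to 0.134 for Fabp4 with the endothelium. The replicate block gave 0 genes and 1836 at an unadjusted p under 0.05, and changed no call. Same-numbered libraries deviated with r of -0.263 to 0.0613, and no library correlated best with its own number, so the numbers were not taken as pairs. The hepatocyte covariate and the fits without pro-inflammatory diet libraries 1 and 3 were added after seeing the data. Genes near 10 reads are limited by depth.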
